A study of Xenopus laevis with 12 samples.

Results

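The genome of Xenopus laevis arose by hybridization of a pair of ancestral frog species, and most genes are therefore present on an L chromosome and on its homoeologue, the S chromosome. The S chromosomes are the shorter members of each pair and are known to have lost more genes and to have been rearranged more often since the merger. Sox3 is a SoxB1 transcription factor of the high mobility group box family, which is expressed in pluripotent blastula cells and later in the neural plate, and which is known to bind DNA together with partner factors such as the Pou5f3 proteins. The Sox3 binding sites on the S chromosomes are described here and set against those on the L chromosomes, pair by pair, from pair 1 to pair 9_10. A site was assigned to S or L by the last letter of the chromosome name, with no use of any measured value. Of the 129376 peaks in the lists of both stages, 53494 (41.3%) lay on the 9 S chromosomes, with 51658 of 124076 at stage 9 and 1836 of 5300 at stage 11.5. The L chromosomes held 63566 and 2501 peaks, and the remaining peaks lay on scaffolds that carry no L or S assignment.

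Sox3 was mapped by ChIP-seq against a Myc tag in wild-type animal pole explants. At stage 9 (blastula stem cells), 3 libraries came from explants injected with Sox3 mRNA and 3 control libraries from explants without it. At stage 11.5 (neural plate border), 3 libraries came from explants given Sox3, Wnt8a and Chordin mRNA and 3 control libraries from explants given Wnt8a and Chordin mRNA alone. The protein followed is thus an injected, tagged Sox3, and the endogenous protein was not precipitated. Each stage is represented by a single peak list, attributed by the labels and methods to the libraries of that stage. The stage 9 list is headed as drawn from all replicates, whereas no such statement heads the list of stage 11.5, and which of its 3 libraries were used could not be checked. A single list leaves no spread between replicates, and as read counts are not part of the lists the sequencing depth is unknown. The stages were sequenced on different instruments and cannot be told apart from them. Comparisons of S with L were made within a list and therefore share the libraries, the instrument and the peak calling. Differences between S and L were tested with a two-sided exact sign-flip permutation test over the 9 pairs, with Benjamini-Hochberg adjustment over 29 tests, and the smallest P this design can give is 0.00391. Chromosome pairs are not replicate samples, so these P-values describe how evenly a difference runs over the pairs and nothing of the variation between embryos. Of the 29 tests, 10 passed an adjusted P of 0.05. The 10 are not independent of each other, since the feature shares of a chromosome sum to the whole. With 8 pairs the smallest P rises to 0.00781, and of the 10 calls 6 held whichever pair was left out. These 6 had the same sign in 9 of 9 pairs, so any 8 pairs give the smallest P. Leaving out a pair is therefore no further check on them. The other 4, for bp covered, peaks per transcript and mean log2 score at stage 9 and for transcripts with a peak per Mb at stage 11.5, were lost in 7 or 8 of the 9 such sets without any change of direction (adjusted P up to 0.0680, exact sign-flip permutation test).

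Sox3 peaks at stage 9 were almost as dense on the S chromosomes as on the L chromosomes. The S chromosomes were shorter in all 9 pairs, with a summed length of 1139 Mb compared with 1368 Mb, where the length is the position of the last peak end in either list. Their peak number was 0.813 times that of L, close to the ratio of the lengths (0.833). Peak density on the S chromosomes ranged from 43.2 peaks per Mb on 1S to 50.8 on 8S, with a median of 44.4. On the L chromosomes it ranged from 44.2 on 5L to 51.0 on 9_10L, with a median of 46.1. The ranges overlapped widely, and density was higher on S in 3 pairs and higher on L in 6. The mean log2 ratio of S to L was -0.03 ± 0.06 (SD, n = 9 pairs), which is a geometric mean of 0.980 (adjusted P = 0.221, exact sign-flip permutation test). The value depended on which peaks were counted and per what. Among peaks above the median score the log2 ratio was -0.06 and passed (adjusted P = 0.0425, exact sign-flip permutation test). Per 100 transcripts with a peak the sign turned to 0.08 in favour of S (adjusted P = 0.0283, exact sign-flip permutation test). That value is the number of peaks per transcript with a peak, given below, on a log2 scale, and is not a separate result. Densities of homoeologues went together, with a Pearson r of 0.74 across the 9 pairs, given as a description since all points come from the same list.

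**Figure D1:**
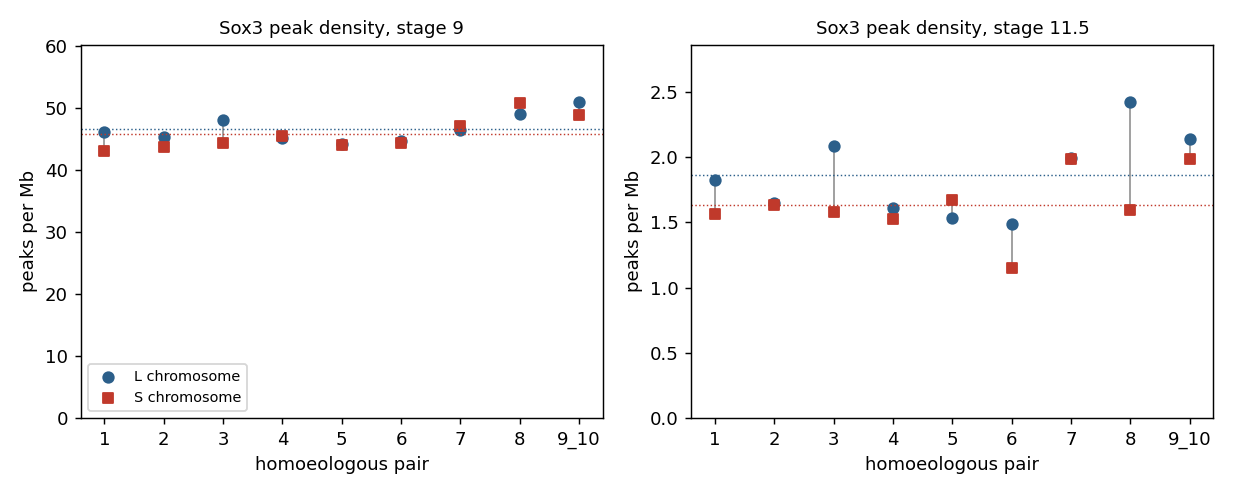
Sox3 peaks per Mb on the L (circles) and S (squares) chromosome of each homoeologous pair at stage 9 (left) and stage 11.5 (right). Dotted lines are the means over 9 chromosomes. At stage 9 the members of a pair lay close together, between 43.2 and 51.0 peaks per Mb, while at stage 11.5 pairs 3, 6 and 8 were further apart, with 1.60 peaks per Mb on 8S and 2.42 on 8L.

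The sequence covered by stage 9 peaks was somewhat lower on S. Peaks covered 12870 ± 778 bp per Mb on S and 13491 ± 815 bp per Mb on L (SD, n = 9 chromosomes each), a mean log2 ratio of -0.07 (lower on S in 8 of 9 pairs, adjusted P = 0.0340, exact sign-flip permutation test). Pair 7 was the exception. The median width of S peaks was 226 bp, with quartiles of 130 and 377 bp, compared with 231 bp on L, and the mean difference of the chromosome medians was -5 ± 4.39 bp (adjusted P = 0.0566, exact sign-flip permutation test). It passed among peaks above the median score (-11.9 bp), with a minimum area of 40 (-7.56 bp) and after merging (-9.94 bp), with adjusted P between 0.0162 and 0.0324 (exact sign-flip permutation test). Widths reached 2542 bp on S and 4299 bp on L. The Peak Score, the peak caller's whole-number score with a maximum of 1000, had a median of 505 on S and 515 on L. The mean log2 score was lower on S by a small amount in 8 of 9 pairs, pair 3 being the exception (difference -0.02 ± 0.02, adjusted P = 0.0340, exact sign-flip permutation test). This difference lost its call when peaks at the maximum score were left out (difference -0.01, adjusted P = 0.160, exact sign-flip permutation test). Peaks at the maximum made up 18.1 ± 0.58% of stage 9 peaks on S and 18.9 ± 0.48% on L (SD, n = 9 chromosomes each), and the share was lower on S in 9 of 9 pairs (adjusted P = 0.0189, exact sign-flip permutation test). Among peaks above the median score this share was lower on S in 7 pairs and higher in 2, and did not pass (adjusted P = 0.0503, exact sign-flip permutation test). The gap was widest in pair 8 (-1.87 percentage points) and narrowest in pair 7 (-0.08).

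The clearest contrast between the subgenomes concerned the place of the peaks relative to annotated transcripts. The lists do not give how much of the S and L sequence is intergenic, intronic or near a transcription start site. The part of annotation in the feature shares and distances given here and below was therefore not tested. Intergenic peaks, which lie outside annotated transcripts and include candidate distal enhancers, formed the largest class on S, with 22663 peaks. They ranged from 39.0% of stage 9 peaks on 9_10S to 47.7% on 5S, with a median of 44.4%. On L the range was 33.9% on 9_10L to 44.0% on 5L, with a median of 40.3%. Although the ranges overlapped between pairs, the S member was higher within every pair, by 2.40 to 5.13 percentage points, with a mean of 4.01 ± 0.87 (SD, n = 9 pairs, adjusted P = 0.0189, exact sign-flip permutation test). The order of the chromosomes was much the same in both subgenomes, with pair 9_10 lowest and pair 5 highest, and the Pearson r across the 9 pairs was 0.96. Intergenic peaks were also denser per Mb on S, at 19.99 ± 1.20 compared with 18.5 ± 0.73 on L (SD, n = 9 chromosomes each). Their density was higher on S in 9 of 9 pairs, which was not tested. The median distance of these intergenic peaks from the nearest TSS (transcription start site) was 22434 bp on S and 19251 bp on L.

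Peaks inside or at the start of transcripts made up a smaller share on S. The feature shares of a chromosome sum to the whole, so these differences are not separate from that in the intergenic share. Intron peaks made up 39.7 ± 1.86% of stage 9 peaks on S and 42.3 ± 1.92% on L, a difference of -2.59 ± 1.56 percentage points that was negative in 9 of 9 pairs (adjusted P = 0.0189, exact sign-flip permutation test). Among peaks above the median score it was negative in 7 pairs and positive in 2, and did not pass (adjusted P = 0.0515, exact sign-flip permutation test). With a minimum peak area of 40 the split was the same and the difference passed (adjusted P = 0.0412, exact sign-flip permutation test). In pairs 2 and 3 the difference was close to 0 (-0.06 and -0.30 percentage points). Promoter peaks made up 8.14 ± 1.10% on S and 9.05 ± 1.21% on L, a difference of -0.90 ± 0.65 that was again negative in 9 of 9 pairs (SD, adjusted P = 0.0189, exact sign-flip permutation test). This call was lost when peaks within 1 kb of each other were merged (adjusted P = 0.0610, exact sign-flip permutation test). Per Mb, promoter peaks on S were at 0.882 times and intron peaks at 0.920 times the density on L (geometric means over 9 pairs, not tested). Exon peaks (4.63% on S) and peaks at transcription termination sites (TTS, 3.74% on S) differed from L by -0.24 ± 0.42 and -0.28 ± 0.33 percentage points, neither of which passed the test (adjusted P = 0.189 and 0.0971, exact sign-flip permutation test). Among intron peaks alone, the share in the first intron, a frequent place of enhancers, was 30.4 ± 2.45% on S and 30.0 ± 2.56% on L and was higher on S in 6 of 9 pairs, which was not tested.

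**Figure D2:**
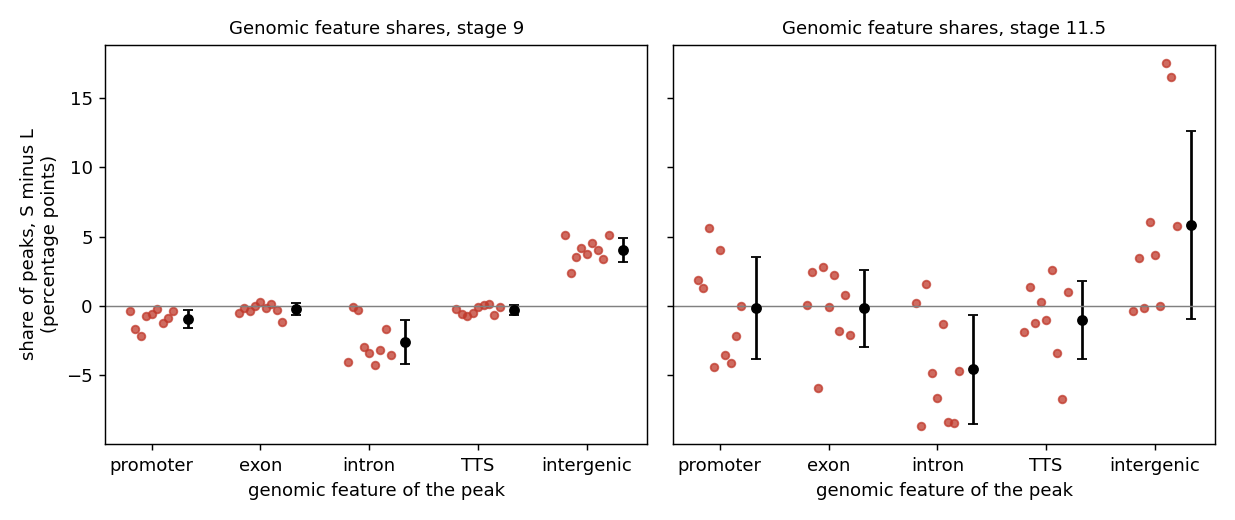
Difference in the share of peaks in each genomic feature between the S and L chromosome of a pair, in percentage points, at stage 9 (left) and stage 11.5 (right). Each red point is 1 of 9 pairs, and the black point and bar are the mean and SD. At stage 9 all intergenic points lie above 0, between 2.40 and 5.13, and all intron and promoter points lie below it. At stage 11.5, with only 148 to 281 peaks per S chromosome, the points scatter widely.

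Peaks on S were also further from transcription start sites. The share of stage 9 peaks with their centre within 5 kb of the nearest TSS was 31.5 ± 3.22% on S and 34.4 ± 4.09% on L (SD, n = 9 chromosomes each). It was lower on S in 9 of 9 pairs, with differences from -1.11 percentage points in pair 2 to -6.20 in pair 3 and a mean of -2.88 (adjusted P = 0.0189, exact sign-flip permutation test). S peaks had a median distance of 12128 bp from the nearest TSS and L peaks one of 10272 bp, and the median of the chromosome was larger on S in 9 of 9 pairs. Peaks over 50 kb from any TSS made up 17.2% of S peaks (Wilson 95% interval 16.9 to 17.5%) and 15.1% of L peaks (14.8 to 15.4%), where the intervals cover counting error only. Peaks upstream of their TSS made up 45.1% on S and 45.5% on L.

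Fewer transcripts on the S chromosomes were the nearest to a Sox3 peak, and the mean number of peaks per such transcript was higher, with the same median of 2 on both subgenomes. At stage 9, 18480 transcripts on S and 23919 on L had a peak, a ratio of 0.773 that is below the ratio of the lengths. Their density on S ranged from 13.8 per Mb on 6S to 20.04 on 8S, with a median of 16.4, and on L from 15.2 to 21.4, with a median of 17.4. Within pairs the S member was lower in 9 of 9, with a mean log2 ratio of -0.10 ± 0.07 (adjusted P = 0.0189, exact sign-flip permutation test). Because a peak is assigned to its nearest TSS, this number depends on how many transcripts are annotated on the chromosome. It was lower on S in the same 9 pairs in which the intergenic share was higher, and its part in the intergenic and distance results was not tested. The number of stage 9 peaks per transcript with a peak was 2.80 ± 0.24 on S and 2.65 ± 0.21 on L (SD, n = 9 chromosomes each). It was higher on S in 8 of 9 pairs, the exception being pair 2, by 0.14 ± 0.10 (adjusted P = 0.0324, exact sign-flip permutation test). Among peaks above the median score it fell short of the threshold (0.07, adjusted P = 0.0515, exact sign-flip permutation test). With peaks more than 5 kb from the TSS left out the difference was gone (mean 0.0027, adjusted P = 0.926, exact sign-flip permutation test). Transcripts with a single stage 9 peak made up 40.4% of those on S and 42.4% of those on L, and transcripts with 8 or more made up 5.58% (Wilson 95% interval 5.26 to 5.92%) and 4.76% (4.50 to 5.03%). The S transcripts with 8 or more stage 9 peaks held 11262 peaks, or 21.8% of the S peaks.

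**Figure D3:**
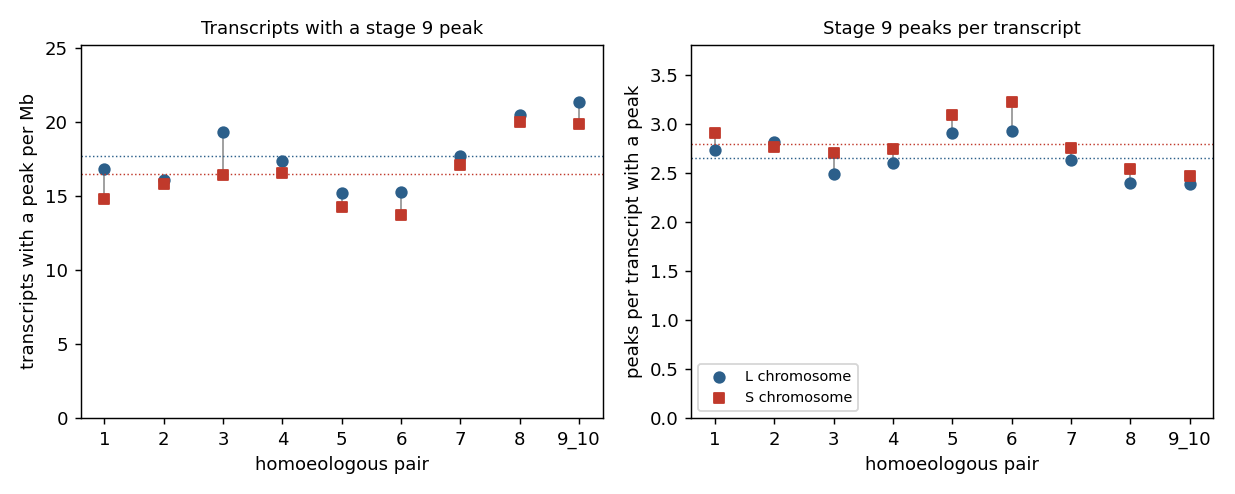
Transcripts that are nearest to at least 1 stage 9 peak per Mb (left) and stage 9 peaks per such transcript (right) on the L (circles) and S (squares) chromosome of each pair, with dotted lines at the means. The S chromosome lies below its L partner in 9 of 9 pairs on the left and above it in 8 of 9 on the right.

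Sox3 peaks were spread along the whole of each S chromosome. In 108 whole windows of 10 Mb on S, stage 9 density had a mean of 45.6 ± 7.38 peaks per Mb (SD over windows), with quartiles of 40.8 and 50.5. The densest window was the first 10 Mb of 9_10S, with 640 peaks (64.0 per Mb), followed by the first 10 Mb of 8S with 637 peaks. In the window on 9_10S, 321 transcripts had a peak and 27.7% of the peaks were intergenic. The sparsest window was the first 10 Mb of 1S, with 279 peaks (27.9 per Mb) at 119 transcripts, of which 49.8% were intergenic. On L the corresponding extremes were 63.5 and 28.2 peaks per Mb. The median gap between neighbouring stage 9 peaks was 10157 bp on S and 9603 bp on L. The longest stretch without a stage 9 peak on S lay on 4S (chr4S:56372934-57018319 in the 9.2 genome) and measured 645386 bp, while the longest on L was 408112 bp. Whether such stretches contain assembly gaps was not tested. Over all S chromosomes, mean density was lowest in the last of 10 equal parts (39.7 ± 7.29 peaks per Mb, SD, n = 9) and highest in the second (49.98 ± 4.80). Peaks with another peak within 1 kb made up 23.9% on S and 24.7% on L.

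Over these 10 parts, the profile of stage 9 density on S followed that of its L partner in most pairs. The Pearson r over the 10 parts was 0.89 in pair 4, 0.88 in pair 5, 0.86 in pair 1, 0.82 in pair 6, 0.81 in pair 9_10 and 0.67 in pair 2. It was lower in pair 7 (0.49) and pair 3 (0.13), and negative in pair 8 (-0.48). On 8S the densest part was the first (64.3 peaks per Mb), whereas on 8L it was the fifth (63.1). Reading the S chromosome from its other end raised r to 0.60 in pair 3 and to 0.20 in pair 8, and lowered it in the other pairs. These values are descriptions over parts of a chromosome that share a list, and the reading in reverse was chosen after the first values were seen. Homoeologous genes were not aligned, so equal parts need not hold corresponding sequence.

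**Figure D4:**
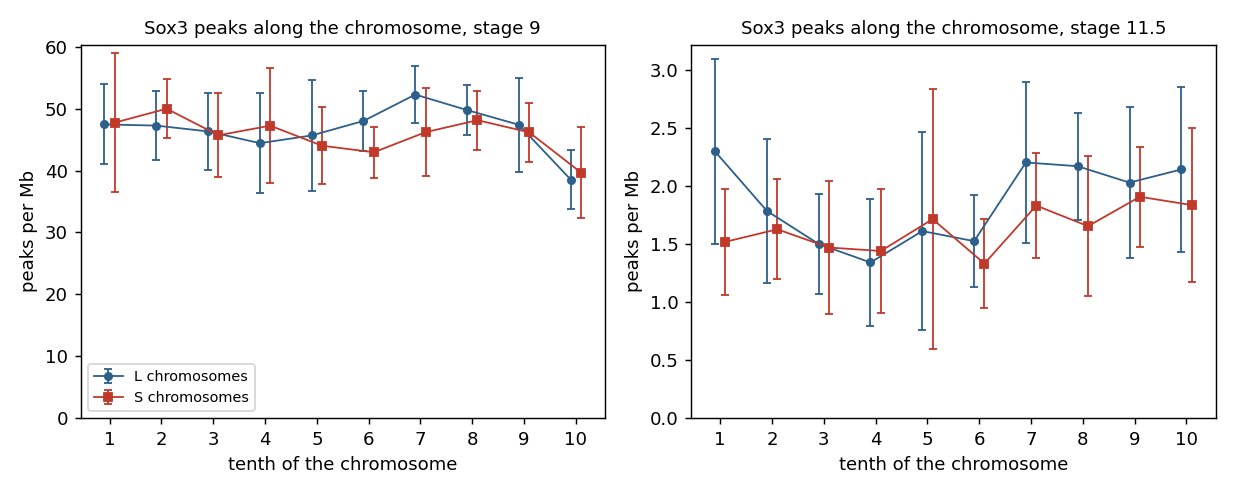
Sox3 peaks per Mb in each of 10 equal parts of the chromosome, in the direction of the assembly, as the mean over 9 chromosomes with bars of 1 SD, at stage 9 (left) and stage 11.5 (right). At stage 9 both subgenomes are lowest in the last part (39.7 on S and 38.5 on L), while at stage 11.5 the first part holds 1.52 on S and 2.30 on L, with overlapping SD bars.

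At stage 11.5 the S chromosomes carried 1836 peaks, 0.734 times the number on L, a smaller ratio than that of the lengths or of the stage 9 peaks. Scaffolds without an L or S assignment held 963 peaks (18.2%) at stage 11.5 and 8852 (7.13%) at stage 9. How these peaks would divide between S and L is unknown. Their part in the stage 11.5 ratio and in its difference from stage 9 was not tested. Density on S ranged from 1.15 peaks per Mb on 6S to 1.99 on 7S, with a median of 1.60. On L it ranged from 1.49 on 6L to 2.42 on 8L, with a median of 1.82. The S member was lower in 8 of 9 pairs, but by very different amounts, and pair 5 went the other way (1.67 on 5S and 1.53 on 5L). The mean log2 ratio was -0.19 ± 0.23 (SD, n = 9 pairs), a geometric mean of 0.879, and did not pass the test (adjusted P = 0.0982, exact sign-flip permutation test). Without pair 5, the only pair of opposite sign, it did (adjusted P = 0.0324, exact sign-flip permutation test). Among peaks above the median score the log2 ratio was -0.09, lower on S in 5 pairs and higher in 4 (adjusted P = 0.55, exact sign-flip permutation test). With a minimum peak area of 40 it was -0.08 with the same split (adjusted P = 0.582, exact sign-flip permutation test). Pair 8 had the widest gap, with 158 peaks on 8S and 291 on 8L (log2 ratio of densities -0.60), followed by pair 3 (-0.40) and pair 6 (-0.37). In pairs 2 and 7 the densities were nearly equal (log2 ratios of -0.01). The log2 ratio was lower at stage 11.5 than at stage 9 in 7 of 9 pairs, by 0.16 ± 0.24 on average, which did not pass the test of the difference (adjusted P = 0.140, exact sign-flip permutation test). Among peaks above the median score it was lower in 3 pairs and higher in 6 (mean difference -0.03, adjusted P = 0.84, exact sign-flip permutation test). With a minimum peak area of 40 it was lower in 4 and higher in 5 (mean difference -0.04, adjusted P = 0.797, exact sign-flip permutation test). Transcripts with a stage 11.5 peak numbered 1457 on S and 2036 on L, and their density was lower on S in 8 of 9 pairs (mean log2 ratio -0.23 ± 0.22, adjusted P = 0.0340, exact sign-flip permutation test). At the start of the chromosomes (the first of 10 equal parts) stage 11.5 density was 1.52 ± 0.46 on S and 2.30 ± 0.80 on L (SD, n = 9 chromosomes each, not tested). The call for transcripts was lost with a minimum peak area of 40 (adjusted P = 0.340, exact sign-flip permutation test) and among peaks above the median score (adjusted P = 0.179, exact sign-flip permutation test).

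At stage 11.5 none of the feature shares passed the paired test, and the scatter between pairs was larger than at stage 9. Each S chromosome held 148 to 281 peaks at stage 11.5, compared with 4221 to 7764 at stage 9. Counting error is larger with so few peaks, and its part in the scatter was not tested. The mean intergenic share was higher and the mean intron share lower on S, as at stage 9, while the promoter and exon shares were split over the pairs. Intergenic peaks made up 47.6 ± 6.18% on S and 41.8 ± 4.47% on L, a mean difference of 5.84 ± 6.80 percentage points (adjusted P = 0.0697, exact sign-flip permutation test). The difference was 17.5 points in pair 7 and 16.5 in pair 8, and between -0.32 and 6.07 in the other pairs. Intron peaks made up 30.5 ± 4.88% on S and 35.1 ± 3.25% on L, lower on S in 7 of 9 pairs (difference -4.57 ± 3.91, adjusted P = 0.0566, exact sign-flip permutation test). Per Mb, intron peaks were lower on S in 9 of 9 pairs, at 0.759 times the density on L, while intergenic peaks had a geometric mean ratio of 1.00. These ratios were not tested, and they include the ratio for all stage 11.5 peaks (geometric mean 0.879). Promoter peaks made up 12.6% on S and 12.7% on L, with a mean difference of -0.14 ± 3.65 (adjusted P = 0.927, exact sign-flip permutation test). Median width was 138 bp on S, with quartiles of 89 and 227 bp, and 137 bp on L. The mean log2 score was 8.60 ± 0.07 on S and 8.54 ± 0.06 on L (SD, n = 9 chromosomes each), higher on S in 6 of 9 pairs without passing the test (adjusted P = 0.140, exact sign-flip permutation test). Peaks at the maximum score made up 14.4 ± 3.11% on S and 13.3 ± 3.04% on L, with 9_10S at 21.3% as the highest chromosome (adjusted P of the difference = 0.440, exact sign-flip permutation test). Peaks per transcript with a peak were 1.26 on S and 1.23 on L (difference 0.04 ± 0.08, adjusted P = 0.231, exact sign-flip permutation test).

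Of the 51658 stage 9 peaks on S, 1261 (2.44%, Wilson 95% interval 2.31 to 2.58%) shared 1 bp or more with a stage 11.5 peak and are called retained. On L, 1685 (2.65%, 2.53 to 2.78%) were retained. Retention ranged from 1.70% on 6S to 2.89% on 7S, with a median of 2.49%, and from 2.02% on 6L to 3.26% on 8L, with a median of 2.70%. The S member was lower in 6 pairs and higher in 3, and the mean difference of -0.23 ± 0.45 percentage points did not pass the test (adjusted P = 0.231, exact sign-flip permutation test). With all peaks pooled, Fisher's exact test gave an adjusted P of 0.0454, a test that treats neighbouring peaks as independent. The widest difference was in pair 8. There, 104 of 5028 peaks were retained on 8S (2.07%, 1.71 to 2.50%) and 192 of 5896 on 8L (3.26%, 2.83 to 3.74%). Retention depends on the number of stage 11.5 peaks, which was 158 on 8S and 291 on 8L. The gap in pair 8 is therefore not independent of that in stage 11.5 density. Of these stage 11.5 peaks, 66.5% on 8S and 66.3% on 8L lay on a stage 9 peak. Without pair 8 the mean difference in retention was -0.11 (exact sign-flip permutation test, adjusted P = 0.453).

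Larger stage 9 peaks, by an area defined as score times width over 1000, were retained more often on both subgenomes. A wider peak offers more positions for an overlap of 1 bp, and the comparison between classes was not corrected for width. In the smallest of 10 classes of area, 0.132% of S peaks and 0.193% of L peaks were retained. In the ninth class the shares were 4.45% (Wilson 95% interval 3.91 to 5.05%) and 4.98% (4.48 to 5.54%). In the largest class they were 14.6% (13.6 to 15.6%) on S and 14.9% (14.0 to 15.7%) on L. S peaks were slightly less frequent in that class, which held 9.54% of S peaks and 10.4% of L peaks. When retention was standardised over the 10 classes, the mean difference between S and L was -0.08 percentage points (adjusted P = 0.662, exact sign-flip permutation test), compared with -0.23 before. By feature, S peaks at promoters were retained most often (3.69%, 154 of 4174) and those in introns least often (2.08%, 426 of 20524), with exon (2.30%), intergenic (2.51%) and TTS peaks (2.99%) between them. On L the promoter share was 3.62% and the intron share 2.41%.

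**Figure D5:**
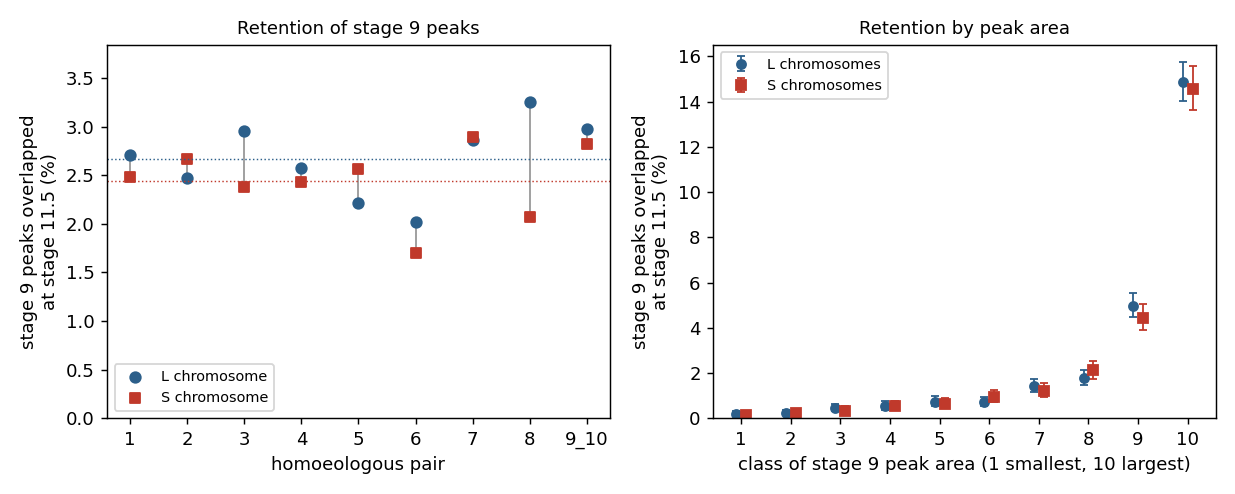
Left, share of stage 9 peaks overlapped by a stage 11.5 peak on the L (circles) and S (squares) chromosome of each pair, with dotted lines at the means. Right, the same share over all S and all L chromosomes in 10 classes of stage 9 peak area, with Wilson 95% intervals that cover counting error only. Pair 8 has the widest gap on the left (2.07% and 3.26%), while on the right the S and L intervals overlap in every class, up to 14.6% and 14.9% in the largest.

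Seen from the later stage, 1284 of the 1836 stage 11.5 peaks on S (69.9%, Wilson 95% interval 67.8 to 72.0%) lay on a stage 9 peak, compared with 1750 of 2501 on L (70.0%, 68.1 to 71.7%). The chromosomes of a pair were alike in this share, which ran from 66.2% on 6S to 74.6% on 4S and from 63.2% on 6L to 75% on 4L and 9_10L, with a Pearson r of 0.94 across the 9 pairs. The mean difference was -0.21 ± 1.71 percentage points (SD, n = 9 pairs, adjusted P = 0.815, exact sign-flip permutation test). Among S peaks of stage 11.5 the share was 79.4% at TTS, 75.1% in introns, 71.6% at promoters, 66.9% in intergenic sequence and 57.3% in exons. The TTS value rests on 54 of 68 peaks (68.4 to 87.3%) and the exon value on 59 of 103. On L introns were highest (76.4%) and exons lowest (61.0%), with TTS at 68.3% (82 of 120). Of the 18480 S transcripts with a stage 9 peak, 1349 (7.30%, 6.93 to 7.68%) also had a stage 11.5 peak, compared with 7.85% (7.51 to 8.19%) on L. This share rose from 2.96% of S transcripts with a single stage 9 peak to 27.8% of those with 8 or more, and on L from 3.31% to 29.4%. A transcript with more peaks has more places for a stage 11.5 peak, and no correction was made for this.

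Individual S loci differed in how their peaks were arranged. The S transcript with the most stage 9 peaks, listed as rna15026, had 37 peaks across 536 kb of chromosome 5S (chr5S:4139797-4675919). All of them lay upstream of its TSS, and 1 overlapped a stage 11.5 peak. The annotation placed 36 of them in introns, which upstream of this TSS must belong to another transcript. The next, rna80512 on 3S (chr3S:49521514-49664100), had 31 peaks within 143 kb, of which 17 were intergenic, 10 intronic and 1 retained. The S transcripts with the most stage 11.5 peaks showed a denser arrangement. The 14 peaks of rna62570 on 9_10S lay within 10.8 kb, 13 of them at the maximum score, and 7 overlapped a stage 9 peak. All 14 were intergenic and upstream of this nearest TSS, the closest at 42494 bp. The 11 peaks of rna72330 on 6S lay within 17.1 kb, the closest at 3568 bp from the TSS, and 1 overlapped a stage 9 peak. The next 3 transcripts had 7 peaks each, all within 13.4 to 24.1 kb, with 1 or 2 on a stage 9 peak. Their closest peaks lay 11444 bp (on 5S), 237 bp (on 7S) and 31292 bp (on 9_10S) from the TSS.

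The stage 11.5 peaks of largest area on S lay in a variety of settings. Among peaks at the maximum score the order by area is an order by width alone. The largest by area that overlapped a stage 9 peak was chr2S:157247160-157249156, 1997 bp wide and at the maximum score, in the last intron of a transcript. It covered 5 separate stage 9 peaks with a summed width of 633 bp. The next was chr2S:152381255-152382929, a promoter peak of 1675 bp whose centre lay 192 bp upstream of the TSS, over a stage 9 peak of 606 bp. It was followed by an exon peak of 1257 bp (chr4S:49401890-49403146) and by an intergenic peak of 1683 bp (chr3S:12588560-12590242) with a score of 701. The latter was the only member of the leading 5 below the maximum score and overlapped the widest stage 9 peak of the group (1986 bp). The fifth, chr5S:59110902-59112008, lay at a TTS. Among S peaks without a stage 9 counterpart, the largest was chr7S:44671533-44673017, an intergenic peak of 1485 bp at the maximum score, 15.5 kb from the nearest TSS and among the 7 clustered peaks of 1 transcript on 7S. The next pair, chr5S:59119298-59120209 and chr5S:59118043-59118812, lay on the same chromosome within 10 kb of the retained peak at 59110902. The remaining 2, chr3S:22995196-22995755 in an intron and chr7S:40140705-40141120, which was intergenic, had areas of 502 and 416, while the smallest area among the 5 retained peaks was 1107.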

How the data were processed

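Reads were trimmed (fastp), aligned (bowtie2, genome 9.2) and processed with SAMtools and Picard, and Genrich, with control libraries as background, gave 1 peak list a stage, to which HOMER added features and distances (versions not given in the sources used here). The authors deposited a peak score (whole number, maximum 1000) with positions and distances in bp, in 2 lists. The lowest areas were 19.9 and 20.0. The depth per sample is unknown, since no counts are given.

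From these lists, lengths (last peak end in either list), densities, shares and overlaps (at least 1 bp) were computed per chromosome with pandas 2.3.3 and numpy 2.4.6 under Python 3.11.15, with scipy 1.17.1 for intervals and Fisher's exact test and matplotlib 3.10.9 for plots. Coordinates are 1-based, of the 9.2 genome. The paired test was tested on simulated data for the stage 9 intergenic share alone (115224 peaks), without the adjustment over 29 tests. On the unadjusted P, 4.6% of 1000 simulations without a difference passed, and 100% with a planted 4 percentage points. The planted value was close to the observed mean of 4.01. The simulations therefore do not bear on smaller differences or on the calls by adjusted P. All 899 planted overlaps were found. Wilson intervals cover counting error only.

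The subgenomes, measures and lists were chosen with earlier results of these data known. Transcripts and peaks to be named were the 5 S transcripts with the most peaks at each stage, the 5 largest S peaks of stage 11.5 with and without a stage 9 overlap, and the extreme 10 Mb windows. The leading 2 transcripts of each stage are identified, because 0 of 45796 identifiers matched the gene table (assembly 10.1). Gene names and sequences were therefore not analysed here. Alternatives covered the set of peaks, merging within 1 kb, chromosome length, overlap rule, standardisation, distance limits and leaving out each pair.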

Additional observations from a re-analysis of the deposited data

Results flagged for a closer look

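Each set of 9 values (S chromosomes, or S minus L over the pairs) was searched for a pair far from the others, as a gap to the nearest value, divided by the whole range, above Dixon's 95% critical value. Of 57 sets, 1 met this limit, where chance gives about 1 in 20. The stage 9 median peak width was 5 bp larger on 7S than on 7L, while in the other 8 pairs the S chromosome was lower, the nearest by 3 bp (-3). Chromosome pairs are not samples, and the peaks of pair 7 were not examined further. Of 13 measures, 0 had an S minus L difference that changed between the stages past an adjusted P of 0.05 (exact sign-flip permutation test), with unadjusted P of 0.0117 for peaks per transcript and 0.0273 for the mean log2 score.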

How the results depend on the processing

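Of 134 results recomputed under an alternative (apart from leaving out a pair), 112 kept their call, 9 fell short of the threshold, 12 passed it only under the alternative and 1 reversed. The cause was not tested unless stated. Values are mean S minus L differences. Counted per 100 transcripts with a stage 9 peak instead of per Mb, stage 9 peaks were more frequent on S (log2 ratio 0.0752, adjusted P = 0.0283, exact sign-flip permutation test). This is the number of peaks per transcript with a peak on a log2 scale. Its denominator, the transcripts with a stage 9 peak, was itself lower per Mb on S in 9 of 9 pairs. Among peaks above the median score, stage 9 density passed as lower on S (log2 ratio -0.0612), as did width at stage 9 (-11.9 bp) and the intron share at stage 11.5 (-5.54 points). The same peaks lost the calls for stage 9 peaks per transcript (0.0737), intron share (-2.21 points), log2 score (-0.0074) and maximum score (-0.79 points), and for stage 11.5 transcripts per Mb (log2 ratio -0.18). With a minimum area of 40, the TTS share (-0.44 points) and width (-7.56 bp) at stage 9 passed and stage 11.5 transcripts per Mb (-0.14) did not. With peaks within 1 kb merged, the promoter share at stage 9 did not pass (-0.78 points), while the TTS share (-0.41 points) and width (-9.94 bp) did. Width also passed as mean log2 width (-0.0308). Stage 9 peaks per transcript within 5 kb of the TSS (0.0027) and the log2 score below its maximum (-0.0104) lost their calls. With peaks pooled, Fisher's exact test passed for the TTS share (-0.29 points) and retention (-0.21) at stage 9, and for the intron (-4.56) and intergenic (5.62) shares at stage 11.5. Retention differences lay between -0.39 and 0.07 points over 9 alternatives, changing sign without passing the exact sign-flip permutation test.

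Leaving out each pair in turn gave 8 pairs, where the smallest possible P is 0.00781. Calls were then lost in 8 of the 9 sets for stage 9 peak bp per Mb (-0.0799 to -0.0558, log2; kept without pair 7) and for stage 11.5 transcripts per Mb (-0.263 to -0.186, log2; kept without pair 2). They were lost in 7 of the 9 for stage 9 peaks per transcript (0.124 to 0.168, kept without pair 2 or 7) and log2 score (-0.0226 to -0.0141, kept without pair 3 or 7). Width at stage 9 passed without pair 7 (-6.25 to -4.25 bp over the pairs), and stage 11.5 density without pair 5 (-0.224 to -0.134, log2). In each case the pair left out was the only one of opposite sign. The intergenic, intron and promoter shares, the share within 5 kb, the share at the maximum score and transcripts per Mb, all at stage 9, passed whichever pair was left out. Each of these had the same sign in every pair, so every such set gave the smallest possible P. For them leaving out a pair was no further check. No paired analysis was possible because, for samples rather than chromosome pairs, a single list stands for a stage and its columns name no replicate, which also kept replicates from being left out. Unknown depth and annotation density limit these comparisons.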
